A study of Mus musculus with 9 samples.

Results

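Cacna1e, Dlg2, Sel1l3, Kcnj16 and Ryr3 are 5 genes that were selected on their measured values, because each was higher in dendritic cells of adult spleen than in those of 8-day-old spleen in these libraries. They are 5 of the 24054 genes in the files and all 5 were among the 14452 genes tested, those averaging 1 read or more per library. The selection used the difference with age, so that difference is described here without a claim from its test. Cacna1e encodes the pore-forming subunit of the R-type voltage-gated calcium channel, Ryr3 a ryanodine receptor that releases calcium from the endoplasmic reticulum, Kcnj16 the inward rectifier potassium channel subunit Kir5.1, and Dlg2 the scaffold protein PSD-93 of the membrane-associated guanylate kinase (MAGUK) family. Sel1l3 encodes a protein related to SEL1L and is neither a channel nor a scaffold by what is known of it.

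Type 2 conventional dendritic cells (cDC2) are CD11b+ antigen-presenting cells that take up antigen in the spleen and prime CD4+ T cells. RNA was sequenced from live, single, autofluorescence-negative MHCII+ CD11c+ CD11b+ cells sorted from spleens of C57BL/6 mice homozygous for Clec9a-Cre and for Rosa-tdTomato, in 3 groups of 3 libraries. In these mice the Clec9a locus drives Cre, so that cells whose own history or whose progenitors' history includes Clec9a expression carry the tdTomato (TOM) label. The groups were TOM+ cDC2 at postnatal day 8, TOM- DC2 at postnatal day 8, and TOM+ cDC2 of adults aged 9 weeks (replicate 1) or 8 weeks (replicates 2 and 3). All groups share both alleles, no adult TOM- group was analysed here, and spleens of the young mice were pooled. The study describes the libraries as biological replicates, but the labels do not tie them to animals or pools, so p-values measure only the spread between these libraries. Counts summed to between 12783252 and 22809401 per library.

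Calcium enters cells through plasma membrane channels and leaves the endoplasmic reticulum through ryanodine and inositol trisphosphate receptors, and the rise in the cytosol acts through calmodulin, calcineurin and NFAT factors. Inward rectifier potassium channels help hold the resting membrane potential, and Kir5.1 works mainly in heteromers with other Kir subunits. Cacna1e, Ryr3 and Dlg2 are best known from neurons and muscle, where MAGUK proteins hold receptors and channels in place under the membrane.

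The genes lie on different chromosomes (GRCm38.p6, the patch release of mm10). Cacna1e spans chr1:154390806-154884785, Dlg2 chr7:90476188-92449246, Sel1l3 chr5:53107083-53213452, Kcnj16 chr11:110968033-111027968 and Ryr3 chr2:112631354-113217405. RefSeq promoter windows were matched for 3 of the 5 genes, 1 for Cacna1e, 3 for Dlg2 and 4 for Kcnj16, each cut to the 250 bases before an annotated start. The windows of Cacna1e and Dlg2 lie inside the spans above, at internal starts, and the outermost starts of these genes had no window. Of the Kcnj16 windows, window 1 lies at the outermost start and the others inside the gene. Which starts were used in these cells was not examined. These 8 windows were searched on both strands for 6 motifs, the TATA box (TATAAA), the core bound by the myeloid and dendritic cell factor PU.1 (GAGGAA), the interferon-stimulated response element (GAAA, 2 bases of any kind, GAAA), AP-1 (TGANTCA), the E-box (CACGTG) and part of the neuronal repressor element RE1 (CAGCACC). The 4 windows that held a match are shown because they are the sequence next to starts of genes that were higher together in adults, with the matched bases in capitals and each printed 5′ to 3′ on the strand of the gene, Cacna1e on the minus strand (chr1:154725921-154726170) and the others on the plus strand (Dlg2 chr7:92062144-92062393, Kcnj16 chr11:111019335-111019584 and chr11:111023610-111023859).
Cacna1e, window 1, PU.1 core: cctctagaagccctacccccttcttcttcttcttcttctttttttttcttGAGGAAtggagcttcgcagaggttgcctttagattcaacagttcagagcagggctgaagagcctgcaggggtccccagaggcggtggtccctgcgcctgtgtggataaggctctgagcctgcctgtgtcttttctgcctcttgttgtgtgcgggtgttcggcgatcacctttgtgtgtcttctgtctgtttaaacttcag
Dlg2, window 2, TATA box: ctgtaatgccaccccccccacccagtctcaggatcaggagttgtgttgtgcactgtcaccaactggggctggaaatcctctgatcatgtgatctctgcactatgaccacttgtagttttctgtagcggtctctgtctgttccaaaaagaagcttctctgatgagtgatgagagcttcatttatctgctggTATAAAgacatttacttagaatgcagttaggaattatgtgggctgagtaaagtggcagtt
Kcnj16, window 3, TATA box: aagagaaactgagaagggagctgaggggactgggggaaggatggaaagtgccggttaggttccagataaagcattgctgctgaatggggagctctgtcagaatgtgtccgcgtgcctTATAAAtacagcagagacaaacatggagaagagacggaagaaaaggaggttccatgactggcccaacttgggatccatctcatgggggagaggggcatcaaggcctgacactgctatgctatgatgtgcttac
Kcnj16, window 4, interferon-stimulated response element on the other strand: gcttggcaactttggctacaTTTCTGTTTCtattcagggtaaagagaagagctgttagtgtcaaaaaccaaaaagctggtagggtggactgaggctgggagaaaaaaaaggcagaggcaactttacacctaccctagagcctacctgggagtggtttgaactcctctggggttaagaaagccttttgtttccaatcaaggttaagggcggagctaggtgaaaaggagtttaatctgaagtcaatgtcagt

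Among 13524 windows of 10695 tested genes, the TATA box letters were found in 6.88%, the PU.1 core in 22.9%, the interferon-stimulated response element in 2.66%, AP-1 in 4.61%, the E-box in 8.0% and the RE1 part in 5.99%. No motif was shared by all 3 genes, and AP-1, the E-box and the RE1 part were found in none of the 8 windows. All 8 windows were poor in CG dinucleotides, with 1 to 7 against a median of 15, and 27.1% of the windows of tested genes had 7 or fewer. Their GC content was 42.8% to 52.0%, below the median of 59.2%. A match of letters is a description and no record of binding.

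In each library the level is given in TPM, a unit of relative transcript abundance that is divided by transcript length and can be compared between genes. Cacna1e was nearly silent in young TOM+ cDC2, with TPM of 0.01, 0 and 0.01 in replicates 1 to 3, from 2, 0 and 1 reads. Its TPM was 0.26, 0.21 and 0.28 in young TOM- DC2 and 1.14, 1.34 and 1.48 in adult TOM+ cDC2. The 3 groups did not overlap and the young TOM- libraries lay between the others.

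Dlg2 had the same order of groups. Its TPM was 0.05, 0.07 and 0.01 in young TOM+ cDC2, 0.44, 0.58 and 0.40 in young TOM- DC2, and 1.86, 1.77 and 2.18 in adult TOM+ cDC2. The lowest young TOM- library was 5.71 times the highest young TOM+ library in TPM, and for Cacna1e it was 21.0 times.

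Sel1l3 was low in both young groups. Its TPM was 0.14, 0.16 and 0.15 in young TOM+ cDC2, 0.38, 0.12 and 0.34 in young TOM- DC2, and 3.10, 3.14 and 4.59 in adult TOM+ cDC2. The young groups overlapped, since replicate 2 of TOM- DC2 was below every TOM+ library.

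Kcnj16 had the highest level of the 5 genes in young cells. Its TPM was 1.12, 1.17 and 1.29 in young TOM+ cDC2, 1.27, 0.97 and 1.43 in young TOM- DC2, and 10.43, 10.37 and 11.86 in adult TOM+ cDC2. The young groups again overlapped, and every adult library was far above them.

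Ryr3 was measured with the most reads, 87 to 2123 per library. Its TPM was 0.68, 0.50 and 0.49 in young TOM+ cDC2, 1.03, 0.99 and 0.90 in young TOM- DC2, and 9.23, 10.81 and 13.37 in adult TOM+ cDC2. The 3 groups did not overlap, but the gap between the young groups was small beside the gap to adults.

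**Figure D1:**
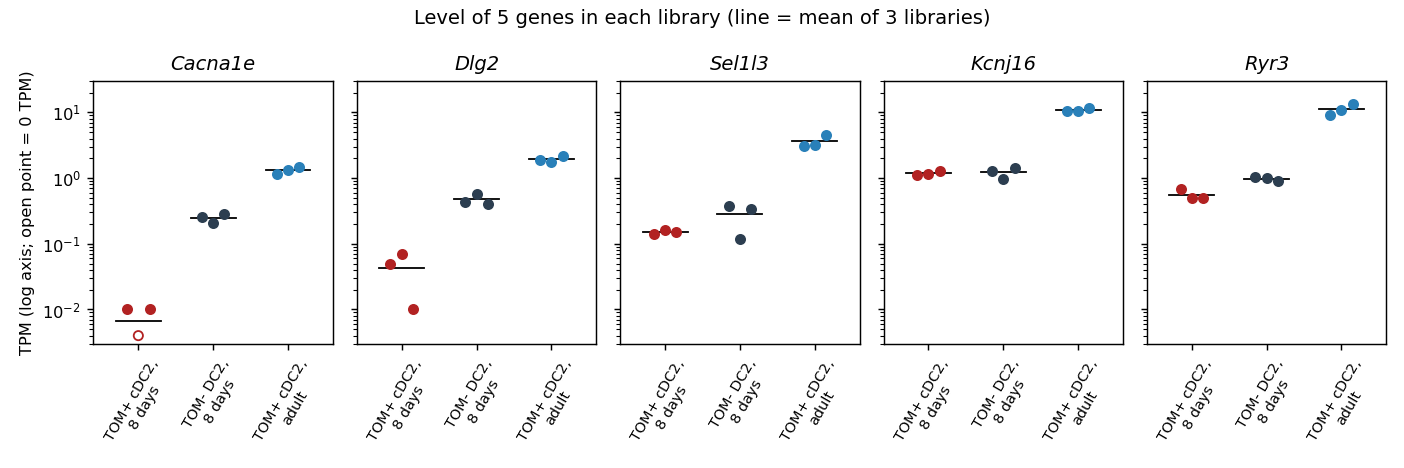
TPM of Cacna1e, Dlg2, Sel1l3, Kcnj16 and Ryr3 (log axis) in each library of young TOM+ cDC2, young TOM- DC2 and adult TOM+ cDC2, with the mean of 3 libraries as a line and 0 TPM as an open point. Adult libraries are highest for all 5 genes, and Cacna1e and Dlg2 also separate the young groups widely.

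Ordered by mean TPM, adult cells had Ryr3 (11.1 ± 2.09, SD, n = 3) and Kcnj16 (10.9 ± 0.843) first, with overlapping ranges, then Sel1l3 (3.61 ± 0.849), Dlg2 (1.94 ± 0.215) and Cacna1e (1.32 ± 0.171), which did not overlap. These levels stood at the 51.2, 50.7, 35.3, 29.3 and 26.2 percentile of the adult TPM of tested genes, so none of the 5 was an abundant transcript. In young TOM- DC2 the order was Kcnj16 (1.22 ± 0.234) and Ryr3 (0.973 ± 0.0666), with overlapping ranges, Dlg2 (0.473 ± 0.0945), and then Sel1l3 (0.28 ± 0.14) and Cacna1e (0.25 ± 0.0361), which overlapped. Young TOM+ cDC2 had Kcnj16 (1.19 ± 0.0874), Ryr3 (0.557 ± 0.107), Sel1l3 (0.15 ± 0.01), Dlg2 (0.0433 ± 0.0306) and Cacna1e (0.00667 ± 0.00577), and only the last pair met, at 0.01 TPM.

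The comparison of TOM+ cDC2 with TOM- DC2 at postnatal day 8 asks how far cells of different Clec9a history differ at 1 age. The selection of the genes did not use this difference itself, but it used the low young values that enter it. The calls and p-values of the 5 genes are therefore not those of genes chosen without these values. The comparison shares the young libraries with the age comparisons and equals the difference between them. Of the 5 genes, Cacna1e and Dlg2 were called (absolute log2FC over 1 and padj under 0.05, edgeR), both higher in TOM- DC2, where 167 of all tested genes were called (1.16%). In the other direction 3 genes were called (0.0208%), and the 5 were not among them. With the library number as a replicate block, 274 genes were called in place of 170, and of the 5 again Cacna1e and Dlg2.

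Cacna1e was 36.7 times higher in TOM- DC2 by counts (95% exact counting interval 12.2 to 181), from 107 reads against 3, with a log2FC (TOM+ minus TOM-) of -4.99 ± 0.47 (SE) and padj of 9.8e-05 by edgeR. The fitted log2FC of so few reads depends on the prior count, and its SE is smaller than the noise of counting 3 reads. Dlg2, from 118 reads against 12, was 10.1 times higher (5.58 to 20.2), with a log2FC of -3.30 ± 0.39 and padj of 0.00059 by edgeR. Young libraries share numbers in their deposited names, which makes 3 pairs, and TOM- was the higher of each pair for both genes. The counting intervals do not cover the spread between libraries, and reads without molecular identifiers are not independent molecules. On log2(TPM + 1), where low levels are compressed, neither gene was called by limma (Cacna1e -0.31, padj = 0.11; Dlg2 -0.50, padj = 0.023).

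Ryr3, the calcium release channel, was 1.72 times higher in TOM- DC2 (1.49 to 1.98), a log2FC of -0.79 ± 0.15 with padj of 0.015 by edgeR, which is under the fold threshold. That padj was 0.00048 with the replicate block, 0.0003 by DESeq2 and 0.0046 with no filter on low counts. It rose to 0.075 without TOM+ replicate 2, to 0.099 without TOM+ replicate 3 and to 0.057 without TOM- replicate 2, and was 0.48 by limma on log2(TPM + 1) and 0.24 on log2(TPM + 0.1). Sel1l3 had a log2FC of -0.78 ± 0.39 (padj = 0.58, edgeR) and overlapping groups. Its approximate 95% interval from the SE, -1.54 to -0.03, is narrower than the test allows, since the unadjusted p was 0.065 by edgeR. Kcnj16 had a log2FC of -0.02 ± 0.18 (padj = 1.0, edgeR), with an interval of -0.37 to 0.34, so a difference of 1 on the log2 scale lies outside it. TOM- was higher in 3 of 3 same-numbered pairs for Ryr3 and in 2 of 3 for Sel1l3 and Kcnj16.

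Other values moved in the same comparison. Of 7 tested B cell markers, Ms4a1 and Blk were called higher in TOM- DC2 (log2FC -1.59 and -3.13). The summed TPM of the list was 106 to 158 in TOM+ and 123 to 187 in TOM-, higher in TOM- in 3 of 3 same-numbered pairs, and Pax5 had at most 3 reads in every library. Summed TPM was also higher in TOM- in 3 of 3 pairs for macrophage markers (179 to 226 against 286 to 349), markers of the ESAM high subset of cDC2 (284 to 424 against 392 to 530) and nuclear-retained RNAs (181 to 305 against 267 to 316). The same held for markers of the ESAM low subset (1780 to 2630 against 1880 to 3130) and of monocytes (1730 to 2580 against 1830 to 3060). Both of these sums came mostly from Lyz2. It held too for markers of type 1 conventional dendritic cells (cDC1, 202 to 216 against 217 to 233). Most of the cDC1 sum came from Batf3 (mean 160 against 158 TPM), and the rise in TOM- came from Irf8 (23.6 against 41.5). Xcr1 (3.3 against 3.21), Tlr3 (2.9 against 2.72) and Cadm1 (19.7 against 19.7) were not higher in TOM-. For the cDC2 markers TOM- was higher in 0 of 3 pairs. The share of reads in no gene was 11.81%, 9.16% and 8.84% in TOM+ replicates 1 to 3 and 12.83%, 11.40% and 10.68% in the TOM- libraries of the same numbers. For the ESAM high markers, nuclear-retained RNAs and reads in no gene the young TOM- median lay between those of young TOM+ and adult cells. The levels of Cacna1e and Dlg2 had this order too. So did the medians of B cell (114, 137 and 190), cDC1 (213, 227 and 246), monocyte (2030, 2240 and 2270) and ESAM low markers (2080, 2290 and 2330). Plasmacytoid dendritic cell and stromal lists also had it, and macrophage and cDC2 lists did not. Single genes of a list could differ from its sum. Most of the B cell sum came from Cd22 (60.4, 68.7 and 127 TPM) and Cd79b (62.1, 64.7 and 30.6 TPM), and Cd79b was lowest in adults. Cd79a (0.327, 0.93 and 0.64 TPM) was highest in young TOM-. Of the cDC1 markers, Xcr1 (2.64 TPM), Tlr3 (2.3) and Cadm1 (6.54) were lowest in adults. Ms4a1 (2.46, 7.8 and 16.9 TPM) and Blk (0.603, 5.91 and 13.3 TPM) were called in all 3 comparisons. TOM- replicate 1 stood apart in erythroid markers (1170 summed TPM, against 52.6 to 120 in the other young libraries) and neutrophil markers (32.8 against 0.44 to 1.01). Without that library Cacna1e had a log2FC of -4.99 and Dlg2 of -3.36, both called. The part of any of these in the differences of Cacna1e and Dlg2 was not tested. In bulk libraries fewer cells expressing a gene and less RNA per cell cannot be told apart.

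The age comparisons were those that chose the genes, so their values are a description and the 5 of 5 called in each carries no weight. They share the adult libraries. Among all tested genes, 991 were called higher in adults against young TOM+ cDC2 (6.86%) and 862 higher in the young cells (5.96%), while against young TOM- DC2 691 were called higher in adults (4.78%) and 940 higher in the young cells (6.5%).

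Cacna1e was 218 times higher in adults than in young TOM+ cDC2 by counts (counting interval 74.2 to 1060), log2FC -7.57 ± 0.40, and 5.94 times higher than in young TOM- DC2 (4.80 to 7.41), log2FC -2.58 ± 0.24. Dlg2 was 45.7 times (25.8 to 89.2) and 4.51 times (3.66 to 5.60) higher, log2FC -5.45 ± 0.36 and -2.15 ± 0.27. Of the 5, these showed the greatest disparity between both age comparisons, and young TOM- DC2 held 18.9% of the adult TPM of Cacna1e and 24.4% of that of Dlg2, where young TOM+ cDC2 held 0.505% and 2.24%.

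Sel1l3 was 25.4 times higher in adults than in young TOM+ cDC2 (16.8 to 40.0) and 14.4 times higher than in young TOM- DC2 (10.4 to 20.4), log2FC -4.61 ± 0.32 and -3.82 ± 0.30. Ryr3 was 21.7 times (19.3 to 24.4) and 12.6 times (11.5 to 13.9) higher, log2FC -4.42 ± 0.14 and -3.63 ± 0.14. Kcnj16 was 10 times (8.39 to 12) and 9.78 times (8.20 to 11.7) higher, log2FC -3.31 ± 0.16 and -3.29 ± 0.16. For Kcnj16 both young groups held a like share of the adult TPM, 11.0% in TOM+ and 11.2% in TOM-.

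**Figure D2:**
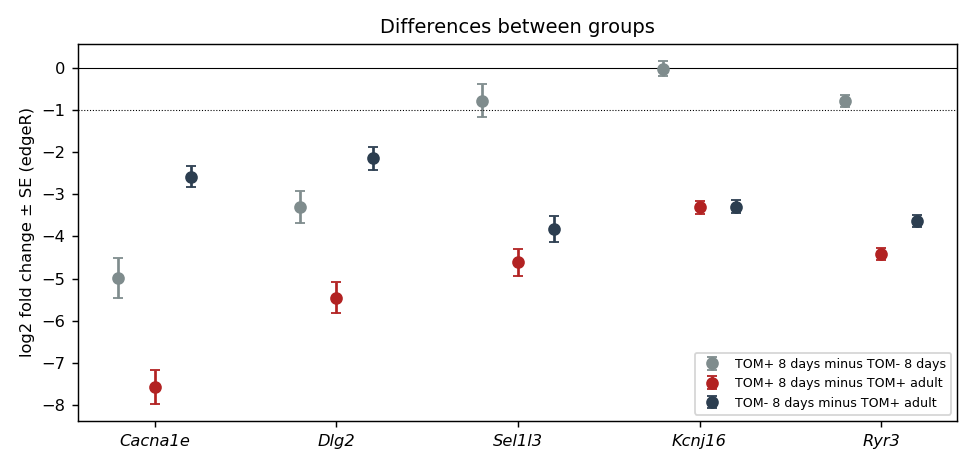
Log2 fold change with its SE (edgeR, 3 libraries per group) of the 5 genes in the 3 comparisons, each as first group minus second, with the fold threshold of -1 dotted. Cacna1e and Dlg2 differ between the young groups by -4.99 and -3.30, and Kcnj16 by -0.02.

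With age the ESAM high markers moved too, from a summed TPM of 284 to 424 in young TOM+ and 392 to 530 in young TOM- to 848 to 914 in adults, with 5 of 7 called higher in adults against young TOM+ and 4 of 7 against young TOM-. The cDC2 markers summed to 30800 to 31200, 29000 to 30500 and 48600 to 50800 TPM in the same order, most of it from the MHC class II genes H2-Ab1 and H2-Aa (28800 and 19000 TPM in adults). Of these 10 markers 1 was called each way in both age comparisons, with the lectin genes Cd209a higher in adults (221, 161 and 496 TPM) and Clec10a lower (43.2, 53.7 and 11.7 TPM). Nuclear-retained RNAs summed to 181 to 305, 267 to 316 and 869 to 987 TPM, with Malat1 and Neat1 both called, and the share of reads in no gene was 8.84% to 11.81%, 10.68% to 12.83% and 15.18% to 17.12%. B cell markers summed to 186 to 193 TPM in adults. Their part in the difference with age was not tested. Markers of neurons and glia, the cells in which Cacna1e, Dlg2 and Ryr3 are best known, summed to 1.06 to 3.14 TPM in all 9 libraries, with Snap25, Syt1, Gad1 and Nefl at 0 reads in every group.

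Each gene was set beside the other genes of its family, by TPM. Cacna1s, the pore-forming subunit of the L-type channel of skeletal muscle, was the highest Cacna1 gene in every group, at 2.61 ± 0.338 in young TOM+, 2.95 ± 0.278 in young TOM- and 11.2 ± 0.878 in adults. Cacna1e held 0.208% of the summed Cacna1 TPM in young TOM+, 6.07% in young TOM- and 9.99% in adults, where it was second. Ryr3 held 32.4%, 54.3% and 85.6% of the ryanodine receptor TPM. Ryr1, the receptor of skeletal muscle, was above it in young TOM+ cDC2 only, at 1.16 ± 0.0907 TPM against 0.557.

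Kcnj16 was the highest inward rectifier gene in every group and held 52.6%, 50.6% and 89.0% of the Kcnj TPM. Kcnj2 and Kcnj13, other Kir channel genes, stayed at or below 0.503 TPM on average. Dlg1, the most expressed of its family, was at 17.7 ± 1.88, 19.7 ± 2.47 and 22.8 ± 2.17 TPM, and Dlg2 held 0.235%, 2.24% and 7.24% of the Dlg TPM. Dlg3, which also encodes a MAGUK scaffold, was higher in adults at 1.65 ± 0.398 TPM against 0.32 and 0.367 (log2FC -2.49 and -2.38). Sel1l, the adaptor of the ER-associated degradation ligase HRD1, was at 46.3, 45.0 and 45.0 TPM, and Sel1l3 held 0.323%, 0.619% and 7.43% of the family's TPM.

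**Figure D3:**
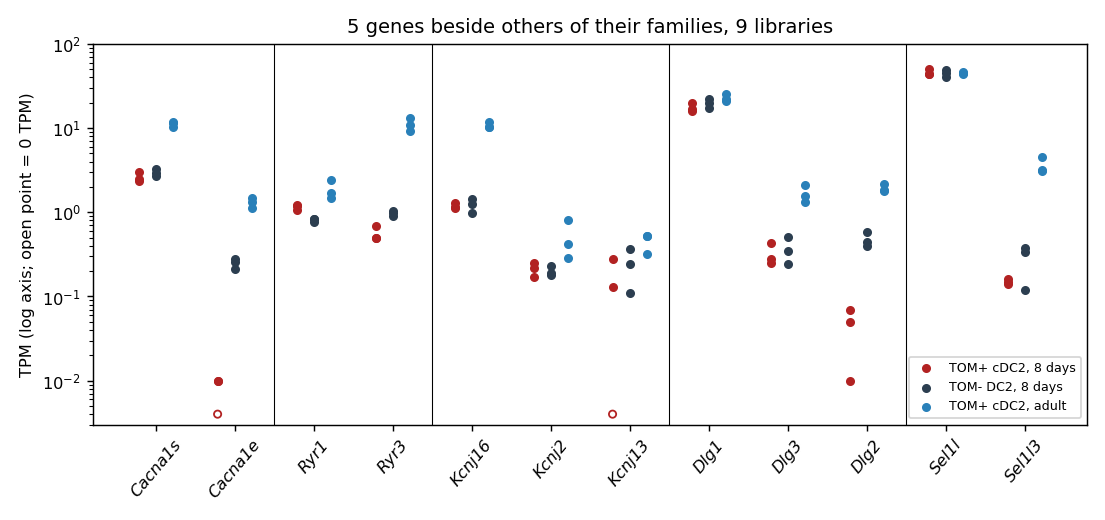
TPM (log axis) of the 5 genes beside other genes of their families in each of the 9 libraries, coloured by group, with 0 TPM as an open point. Cacna1s, Dlg1 and Sel1l lie above Cacna1e, Dlg2 and Sel1l3 in every library, and Kcnj16 above the other Kir genes shown.

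The lists of related genes, 7 in number, held 210 genes, of which 140 were tested, and the counts below leave out the 5 genes themselves. Against young TOM+ cDC2, 11 of the remaining 135 were called higher in adults (8.15%, beside 6.86% of all tested genes) and 8 were called higher in the young cells. Against young TOM- DC2, 9 were called higher in adults (6.67%, beside 4.78%) and 8 higher in the young cells. Between the young groups, 3 of 135 were called, all higher in TOM- DC2 (2.22%, beside 1.16%). With Cacna1e and Dlg2 that makes 5 of 140, and 8 with the replicate block.

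Among voltage-gated calcium channel subunits, 3 of 14 were called higher in adults and 1 lower, with a median log2FC of -1.0 against 0.05 over all tested genes in young TOM+ minus adult. Cacna1s, the auxiliary subunit Cacnb1 and the auxiliary subunit Cacnb3 were higher in adults (log2FC -2.25, -1.55 and -2.60), while Cacnb2 was higher in the young cells (2.14). All 4 were called in the same direction against young TOM- DC2. The list as a whole did not lean that way there, with a median log2FC of -0.11 against 0.07 over all tested genes. In young TOM- minus adult 7 of the 14 were above 0 and 7 below, where young TOM+ minus adult had 3 above and 11 below. Cacnb3 had 8.93, 13.2 and 50.4 TPM in young TOM+, young TOM- and adult cells. Among genes of calcium stores and store-operated entry, 0 of 26 were called higher in adults than in young TOM+ cDC2 by edgeR and 0 by DESeq2, while 8 had an unadjusted p under 0.05 in that direction. Against young TOM- DC2 1 was called higher in adults, Ryr1 (-1.32), and 2 were called higher in the young cells, Fkbp1b and Atp2b4 (2.07). Fkbp1b, which encodes a ryanodine receptor binding protein, was higher in both young groups (log2FC 1.96 and 1.49).

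In young TOM+ cDC2 against adults, 2 of 22 calmodulin, calcineurin and NFAT genes were called higher in adults, Nfat5 (-1.04) and the calcineurin regulator Rcan1 (-1.16), and 2 higher in the young cells, Rcan3 (1.14) and the kinase gene Camkk2 (1.13). Against young TOM- DC2, 0 of the 22 were called higher in adults by edgeR and 0 by DESeq2, with 5 at an unadjusted p under 0.05, and Nfat5 (-0.64), Rcan1 (-0.52) and Rcan3 (0.90) were not called. Higher in young TOM- DC2 than in adults, 2 were called, Camk2a (1.09) and Camkk2 (1.01), a count that moved in 9 of 19 alternatives. Of 5 other inward rectifiers, Kcnj2 (-1.35) and Kcnj13 (-1.92, padj = 0.046, edgeR) were called higher in adults than in young TOM+ cDC2, Kcnj13 from 18 reads against 7. With Kcnj16 that made 3 calls, which were 2 by DESeq2 and 1, Kcnj16 alone, without young TOM+ replicate 2 or without adult replicate 2. Against young TOM- DC2 Kcnj2 (-1.45) was called and Kcnj13 (-1.34) was not.

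Among 25 other potassium channel genes 2 were called each way in young TOM+ cDC2 against adults, with Kcnn1 (-2.64) and Kcnk12 (-1.44) higher in adults and Kcnab2 (1.71) and Kcnh3 (1.5) higher in the young cells. Against young TOM- DC2 Kcnn1 (-2.20) and Kcnab2 (1.48) were called the same way, Kcnh3 (1.36) was not called, and Kcnk12 was called the other way (2.35). In the MAGUK list of 23, Dlg3 was called higher in adults in both comparisons, and Mpp6 (1.06) and Card10 (1.24) higher in young TOM+ cDC2, but not in young TOM- DC2 (0.86 and 0.91). Of 20 SEL1L and ER-associated degradation genes Herpud1 alone was called, higher in adults in both comparisons (-1.28 and -1.23).

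The 3 list genes called between the young groups beside Cacna1e and Dlg2 were Kcnk1, Kcnk12 and Ppp3cc. Kcnk1, a two-pore potassium channel gene, had 5.31, 4.46 and 5.40 TPM in young TOM- DC2, 0.08, 0 and 0 in young TOM+ cDC2, and was at 0 in every adult library. Kcnk12, of the same class, had a mean of 4.66 TPM in young TOM-, 0.33 in young TOM+ and 0.86 in adults (log2FC -3.78, padj = 6e-05, edgeR). Ppp3cc, a calcineurin catalytic subunit gene, had a log2FC of -1.07 (padj = 0.0021, edgeR). Kcnk1 and Kcnk12 were thus lower in adults than in young TOM- DC2, unlike Cacna1e and Dlg2.

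**Figure D4:**
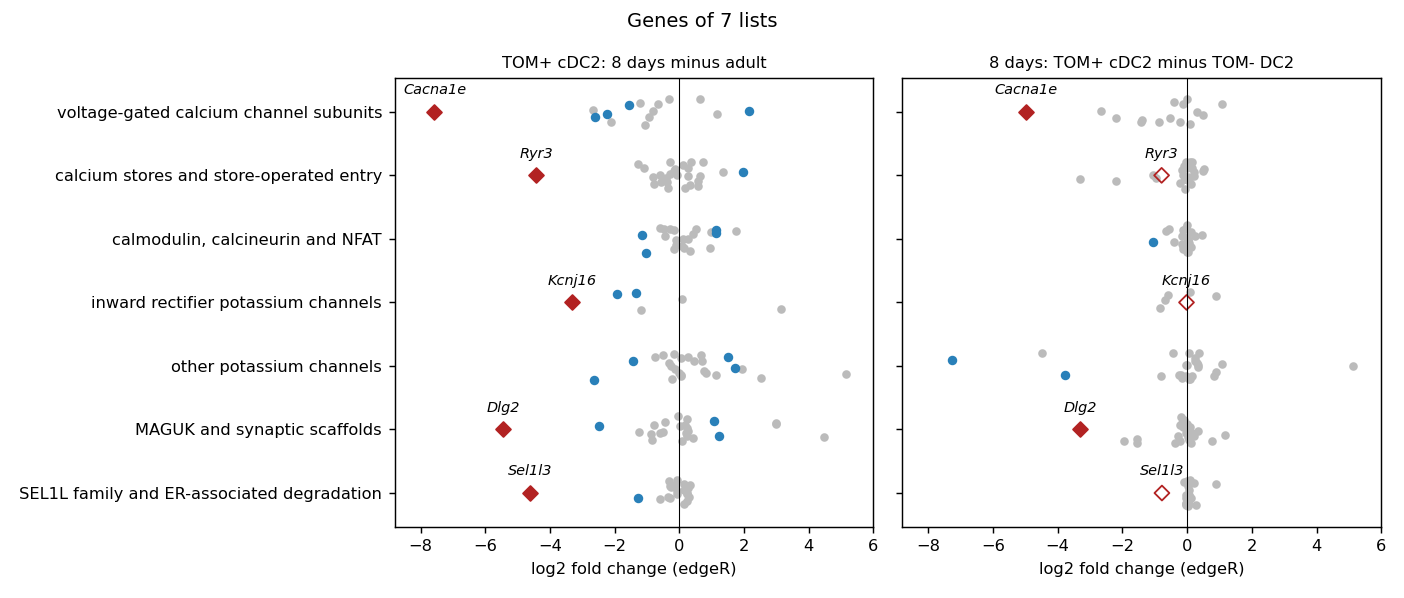
Log2 fold change (edgeR) of the tested genes of 7 lists in young minus adult TOM+ cDC2 and in young TOM+ cDC2 minus young TOM- DC2, with called genes in blue and the 5 selected genes as diamonds, filled where called. The 5 genes lie left of 0 with age, and Cacna1e and Dlg2 alone of the 5 are filled in the comparison of young cells.

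Likeness of pattern was measured as Pearson's r over the 9 libraries on log2(TMM CPM + 0.5), against 10107 genes averaging 50 reads or more, as a description that mostly follows the differences between the 3 groups. Cacna1e and Dlg2 were most alike to each other among the 5 (r = 0.985), and Sel1l3, Kcnj16 and Ryr3 formed a set with r of 0.979 to 0.992. Dlg2 and Kcnj16 were least alike (0.851). Outside the 5, Cacna1e was nearest to Cd7 (0.990), Pglyrp2 (0.989) and Tmod2 (0.989), and Dlg2 to Prnp (0.981), Ptpn3 (0.980) and Ccl5 (0.979). Cd7 had 228, 408 and 859 TPM in young TOM+, young TOM- and adult cells. Sel1l3 was nearest to Gramd3 (0.995), Rnf167 (0.994) and Sirt7 (0.991), Kcnj16 to Clic4 (0.994), Hdac10 (0.993) and Rcsd1 (0.993), and Ryr3 to Lincrna-cox2 (0.997), H2-Oa (0.997) and Trim12a (0.996). Genes with r of at least 0.95 numbered 108 for Cacna1e, 52 for Dlg2, 464 for Sel1l3, 489 for Kcnj16 and 511 for Ryr3. On log2(TPM + 1) Ccl5 and Clic4 were the ones of these 15 that stayed among the nearest 3.

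Size was shared by 3 of the 5 genes. Dlg2 spans 1973.1 kb, Ryr3 586.1 kb and Cacna1e 494.0 kb, at or above the 99.3 percentile of tested genes, and Sel1l3 and Kcnj16 span 106.4 kb and 59.9 kb. Over 13628 tested genes with a span, span and log2FC (young TOM+ minus adult) had a Spearman's rho of -0.05 across genes, which are not independent replicates. Of 274 genes of at least 300 kb, these 3 included, 13.1% were called higher in adults and 8.76% higher in young TOM+ cDC2, against 6.65% and 5.31% of 3803 genes under 10 kb. Against young TOM- DC2 the balance was the other way, with 6.93% of the longest genes called higher in adults and 14.2% higher in the young cells. Between the young groups 3.28% of the longest genes were called higher in TOM- DC2, against 0.947% of the shortest. Reads were counted without strand, so any antisense reads counted to these genes cannot be told apart from sense reads.

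**Figure D5:**
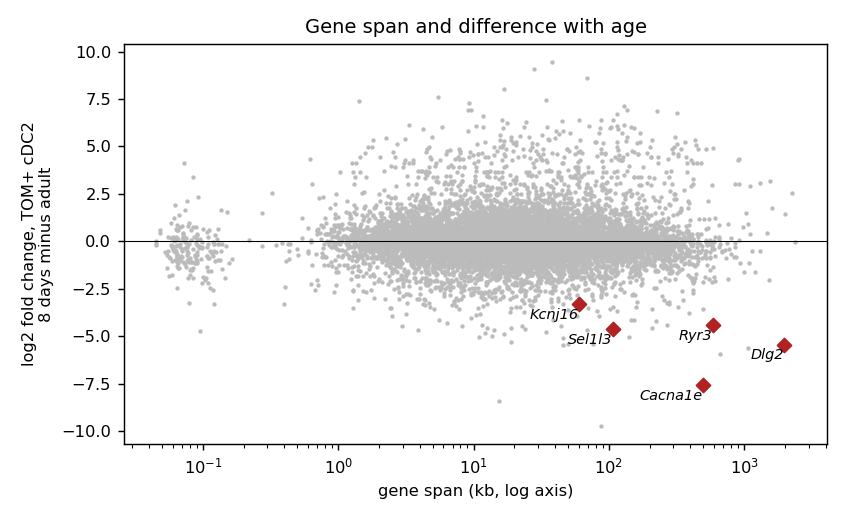
Gene span (kb, log axis) against log2 fold change of young minus adult TOM+ cDC2 for tested genes (grey points), with the 5 selected genes as diamonds. Dlg2, Ryr3 and Cacna1e lie at the long end and low, while most long genes lie near 0.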

How the data were processed

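All 9 libraries were made with the SMART-seq v4 kit and sequenced as 50-base single-end reads. Reads were mapped by the authors to mm10 with STAR, and the deposited counts per gene are raw and unstranded. The authors computed TPM, expected counts and FPKM with RSEM, and FPKM was not used here. Versions of STAR and RSEM are not given in the sources used here. Counts were tested with edgeR 4.0.16 (quasi-likelihood test, TMM, all 9 libraries in 3 groups, average count of at least 1, Benjamini-Hochberg adjustment), and a gene was called at an absolute log2FC over 1 and padj under 0.05. Alternatives used limma 3.58.1, DESeq2 1.42.0 with apeglm 1.24.0, rounded expected counts, other filters, a replicate block and leaving out each library. The SE given with a log2FC was derived from the edgeR F statistic, as the absolute log2FC over its square root. Intervals from the SE used the normal distribution, so both are approximate. The study's methods used DESeq2. The code was tested on simulated data. Genes named were the 5, list genes called (at most 4 per list and comparison by size), family members averaging at least 1 TPM in a group, and the 3 nearest in pattern. The 5 genes and the lists were chosen with earlier results of these data known. The number in deposited library names (81, 91, 92, 95) has no stated meaning. Same-numbered young libraries deviated together (r = 0.75, 0.52 and 0.52, against -0.52 to 0.15 for other pairs). Deviations were taken from the mean of each group of 3, so a positive r within pairs by itself pushes the values of other pairs down. The number was used as the replicate block over all 9 libraries. Adult libraries numbered 91 and 92 thus shared a block with young ones, though pairing was examined in young libraries only. No pair of libraries of a group agreed within sampling noise. Reads in no gene and multimapping reads were left out of library sizes, at 8.84% to 17.12% and 10.44% to 13.41% of reads. Sequences and coordinates are from RefSeq tables of GRCm38.p6. R 4.3.3 and Python 3.11.15 were used.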

Additional observations from a re-analysis of the deposited data

Results flagged for a closer look

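The difference with age was not equal in both young groups for 2 of the 5 genes. Taking young TOM+ cDC2 and young TOM- DC2 each against the same adult libraries, the log2 differences of Cacna1e differed by -4.99 and those of Dlg2 by -3.30, each past the threshold by edgeR's quasi-likelihood test (padj = 9.8e-05 and 0.00059). Because the adult libraries are shared, this is the comparison of the young groups itself, whose values also had a part in the choice of the genes.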

How the results depend on the processing

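For the 5 genes, 19 alternatives were run in each comparison. Of 95 values between the young groups, 91 kept their direction and side of the threshold, and so did 95 of 95 against adults for young TOM+ cDC2 and 93 of 95 for young TOM- DC2. By limma on log2(TPM + 1), Cacna1e (-0.31) and Dlg2 (-0.50) were not called between the young groups, leaving 0 of the 5 called and 2 list genes. With the same alternative 1122 genes and 15 list genes were called for young TOM+ cDC2 against adults, and 986 genes, 13 list genes and 3 of the 5 for young TOM- DC2, where Cacna1e (-0.89) and Dlg2 (-0.99) fell under the fold threshold. This pseudocount compresses low levels. Kcnj16 between the young groups ranged from -0.14 to 0.13 when 1 library was left out, changing sign without young TOM+ replicate 1 (0.06) and without young TOM- replicate 3 (0.13). With the replicate block, 274 genes in place of 170 and 8 list genes in place of 5 were called between the young groups, and the block changed no call of the 5 genes. Leaving out 1 library gave -5.79 to -4.54 for Cacna1e and -3.78 to -2.81 for Dlg2. Depth limits Cacna1e in young TOM+ cDC2, where the group has 3 reads.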
